A study of Homo sapiens with 8 samples.

Results

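IMR90 human lung fibroblasts that had received Nutlin-3a for 12 h were compared with IMR90 fibroblasts that had received DMSO, the solvent control, across all genes measured in polyA RNA. The compared libraries were 4 of the 8 in the series, with 2 in each group, and the other 4 came from cells given Nutlin-3a for 6 or 9 h. The deposited table has 18216 gene rows, of which 14074 were tested because 2 or more of the 8 libraries reached a value of 10. Nutlin-3a was given at 3 µg/mL. Cells of all groups were at passage 28 and grew in DMEM with 10% fetal bovine serum, under 3% oxygen and 5% carbon dioxide, and had been seeded on the day before treatment. The group names give 1 DMSO group for all times. The sources used here do not say how long it was cultured, when each group was harvested, or whether replicates were separate cultures. The p-values therefore reflect only how far these samples varied, and that variation may be technical. No cells without p53 were among the samples, and exposure to Nutlin-3a cannot be told apart from time in culture.

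The transcription factor p53 is kept scarce by MDM2, a ubiquitin ligase that binds it and marks it for destruction, and the MDM2 gene is itself a p53 target. Nutlin-3a occupies the p53-binding pocket of MDM2, so p53 accumulates without DNA damage. In fibroblasts, p53 is best known for stopping the cell cycle through CDKN1A, which encodes the CDK inhibitor p21. When CDKs are inhibited, RB-family proteins stay bound to E2F factors and the DREAM complex assembles on cell-cycle promoters, where it is known to occupy E2F sites in replication genes and the CHR element, often beside CCAAT boxes, in mitotic genes.

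Promoters of 6 genes are printed because they hold these elements and belong to genes whose RNA differed at 12 h. They run 5′ to 3′ on the gene's strand over 250 bases before and 50 after the start site, are RefSeq sequence of build GRCh38.p14, and carry the matched letters in capitals. LINC01759, listed in RefSeq as LNCTAM34A, and FDXR show letters that match the p53 response element (chr1:9181954-9182253, plus strand, and chr17:74872945-74873244, minus strand). CDC6 and MCM3 show an E2F site (TTTGGCGC in CDC6, TTTCCCGC in MCM3) with CCAAT boxes (chr17:40287629-40287928, plus strand, and chr6:52284693-52284992, minus strand). CCNB2 and MKI67 show the CHR letters TTTGAA with CCAAT boxes (chr15:59104896-59105195, plus strand, and chr10:128126374-128126673, minus strand), and in MKI67 the second CHR match overlaps a CCAAT box of the other strand, where such boxes read ATTGG.
LINC01759: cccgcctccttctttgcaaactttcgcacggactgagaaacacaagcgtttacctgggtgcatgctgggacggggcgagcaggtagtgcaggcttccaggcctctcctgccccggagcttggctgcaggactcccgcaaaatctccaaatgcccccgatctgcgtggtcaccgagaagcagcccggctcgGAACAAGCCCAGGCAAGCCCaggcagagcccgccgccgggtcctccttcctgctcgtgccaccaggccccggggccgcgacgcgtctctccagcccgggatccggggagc
FDXR: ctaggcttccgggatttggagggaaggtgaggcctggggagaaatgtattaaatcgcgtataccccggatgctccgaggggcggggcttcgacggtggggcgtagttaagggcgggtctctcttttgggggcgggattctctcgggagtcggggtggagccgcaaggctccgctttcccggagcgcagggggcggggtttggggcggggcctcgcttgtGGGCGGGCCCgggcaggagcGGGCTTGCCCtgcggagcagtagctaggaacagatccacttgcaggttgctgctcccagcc
CDC6: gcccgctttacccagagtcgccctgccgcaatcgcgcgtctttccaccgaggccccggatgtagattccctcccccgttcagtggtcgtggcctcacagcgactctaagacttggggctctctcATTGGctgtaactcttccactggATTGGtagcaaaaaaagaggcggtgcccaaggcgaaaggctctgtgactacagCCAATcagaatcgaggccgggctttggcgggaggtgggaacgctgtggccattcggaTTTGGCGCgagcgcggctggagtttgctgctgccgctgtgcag
MCM3: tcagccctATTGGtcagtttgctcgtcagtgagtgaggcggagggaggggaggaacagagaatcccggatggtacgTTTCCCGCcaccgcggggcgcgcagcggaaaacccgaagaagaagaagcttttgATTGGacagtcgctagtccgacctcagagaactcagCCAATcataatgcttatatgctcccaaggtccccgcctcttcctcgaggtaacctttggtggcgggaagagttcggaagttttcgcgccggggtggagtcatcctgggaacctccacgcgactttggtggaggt
CCNB2: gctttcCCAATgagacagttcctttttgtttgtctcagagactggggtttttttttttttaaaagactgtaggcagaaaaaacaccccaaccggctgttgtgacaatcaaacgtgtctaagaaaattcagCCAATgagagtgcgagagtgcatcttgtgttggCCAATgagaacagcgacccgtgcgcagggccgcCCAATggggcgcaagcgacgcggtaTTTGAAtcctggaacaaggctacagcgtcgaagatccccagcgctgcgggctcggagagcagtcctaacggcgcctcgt
MKI67: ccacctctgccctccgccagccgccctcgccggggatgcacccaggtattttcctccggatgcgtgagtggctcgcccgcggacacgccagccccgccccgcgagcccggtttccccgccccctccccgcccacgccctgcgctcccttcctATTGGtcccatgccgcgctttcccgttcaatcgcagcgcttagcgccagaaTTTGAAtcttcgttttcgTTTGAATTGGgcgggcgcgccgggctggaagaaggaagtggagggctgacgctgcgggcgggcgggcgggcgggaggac

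A value below is a normalized count, which is the number of reads assigned to a gene divided by a size factor of the library. Gene reads numbered 33585645 and 26320822 in the 12 h libraries and 27874268 and 25272743 in the DMSO libraries, and 3 reads, taken as the floor for counting error, correspond to normalized counts of 2.46 to 3.22 in these 4 libraries. Replicates were closer at 12 h than in DMSO, with an SD of the log2 difference between replicates of 0.100 at 12 h and 0.158 in DMSO over 10612 genes. Fibroblast markers summed to 1606070 and 1575390 at 12 h and to 1370560 and 1341410 in DMSO, and all 19 of 20 listed that were in the table passed the filter. Of 14 epithelial markers 6 were tested, and their summed values were 3080 and 2974 at 12 h and 3181 and 3106 in DMSO. KRT18 held most of these sums, and its values are given below with those of KRT19. CLDN4 was also well above the floor at 12 h. EPCAM, another of these markers, was scarce with 24.6 and 18.7 at 12 h and 19.5 and 24.7 in DMSO. Of 10 immune markers 2 were tested, with sums of 998 and 938 at 12 h and of 934 and 763 in DMSO. Most of this was CD68, with 949 and 901 at 12 h and 894 and 736 in DMSO. Endothelial markers had 5 of 10 members tested, with sums of 1585 and 1503 at 12 h and of 2152 and 2035 in DMSO, most of it in TEK. The part of other cell types in the results was not tested.

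At 12 h, 2603 genes had risen and 3007 had fallen, which is 18.5% and 21.4% of the genes tested. These shares are the background for the counts of list members below. The lists were chosen with earlier results of these data known, so list shares are not independent support. A gene is said to have risen or fallen when its difference in log2(normalized count + 1) passed an adjusted p of 0.05 in a limma fit of all 8 libraries, and its size is given as a log2 change with its standard error (SE) after ±. Most called differences were small, since 2000 of the genes that rose and 2030 of those that fell changed by under 1.5-fold. Genes at least 2-fold higher numbered 234 (1.66%) and genes at least 2-fold lower 510 (3.62%). Past 4-fold there were 52 and 131 genes, and past 8-fold 16 and 12. The median log2 change over all tested genes was 0.01. With quantile normalization 3369 genes rose and 2482 fell, so that 57.6% of the calls were increases, against 46.4% without it. Fewer genes rose without 12 h replicate 2. In a separate setting, with all libraries kept and only genes with a mean of at least 50 tested, 127 were at least 2-fold higher.

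**Figure D1:**
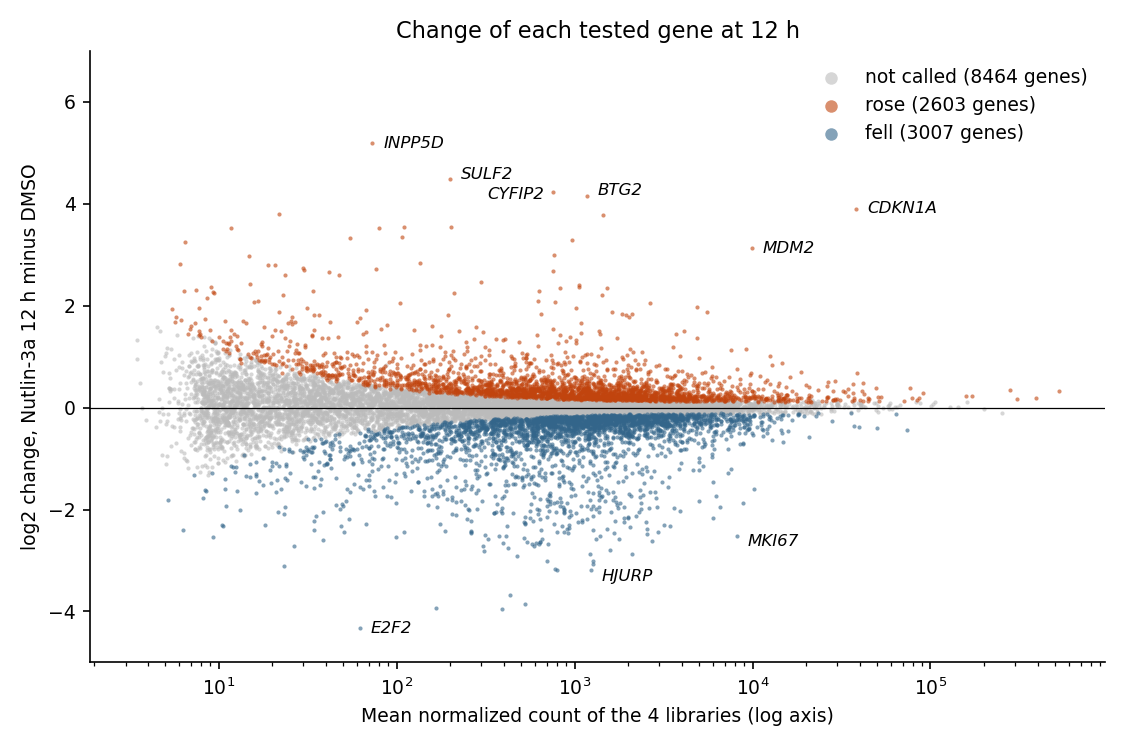
Each point is 1 of 14074 tested genes, placed by its mean normalized count over the 4 libraries (log axis) and its log2 change at 12 h relative to DMSO; colours give the call. Increases reach 5.18 (INPP5D) and decreases −4.33 (E2F2), and most called genes lie within 1 log2 unit of 0.

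MDM2, the target and antagonist of p53, was high in both 12 h libraries. It had normalized counts of 17639 and 17872 at 12 h, against 1882 and 2196 in DMSO, which is 8.73-fold higher at 12 h (log2 change 3.13 ± 0.06, adjusted p = 7.5e-19). The groups did not overlap. Among 16 tested genes for p53 and its direct regulators, 7 rose and 4 fell, and their median log2 change was 0.19. Those that rose included PPM1D, a phosphatase that dampens p53 signalling (971 and 1018 at 12 h and 486 and 481 in DMSO, log2 change 1.04 ± 0.06), and TP53INP1, a stress-induced p53 cofactor (2559 and 2553 at 12 h and 456 and 548 in DMSO, 2.35 ± 0.07). CCNG1, which encodes cyclin G1, had 6021 and 6116 at 12 h and 2039 and 2257 in DMSO (1.50 ± 0.05). ZMAT3, an RNA-binding p53 target, had 7676 and 7784 at 12 h and 1779.9 and 2149.7 in DMSO (1.98 ± 0.07), and AEN, a nuclease, 3723 and 3572 at 12 h and 2024 and 2100.3 in DMSO (0.82 ± 0.05). Those that fell included the checkpoint kinase CHEK2 (134 and 146 at 12 h and 227 and 216 in DMSO, −0.66 ± 0.12), the deubiquitinase USP7 (−0.23 ± 0.05) and the kinase HIPK2 (−0.16 ± 0.06). The call of HIPK2 was lost under 6 of the alternative settings.

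The 16 largest increases with a mean of at least 50 joined known p53 targets with genes of other functions, and all 16 were chosen with both 12 h libraries above both DMSO libraries, an order that 33.6% of all tested genes showed, while 33.5% showed the opposite one. INPP5D, a phosphatase of the signalling lipid PIP3, had the largest log2 change (5.18 ± 0.24, adjusted p = 3.3e-13), with 133 and 154 at 12 h, against 1.95 and 4.3 in DMSO. Its DMSO values lie at or near the floor of 3 reads, so the size of this change rests on very few reads. SULF2, a sulfatase that trims heparan sulfate outside the cell, had 386 and 377 at 12 h and 18.6 and 14 in DMSO (4.48 ± 0.14, adjusted p = 7e-16). CYFIP2, a subunit of the WAVE complex that drives actin branching, had 1455 and 1407 at 12 h and 69.4 and 82.7 in DMSO (4.22 ± 0.09, adjusted p = 1.3e-18). All 3 genes were scarce in both DMSO libraries.

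Other large increases started from higher DMSO values. BTG2, an antiproliferative protein that recruits mRNA deadenylases, had 2225 and 2219.6 at 12 h and 127 and 121 in DMSO (4.15 ± 0.06, adjusted p = 6.9e-21). CDKN1A had 72462 and 70871 at 12 h and 4954 and 4670.0 in DMSO (3.90 ± 0.04, adjusted p = 1.1e-22), which is a 14.9-fold difference, and it took 0.261% of gene reads at 12 h and 0.0177% in DMSO. For GDF15, a secreted member of the TGF-beta superfamily, the values were 2734 and 2629 at 12 h and 206 and 186 in DMSO (3.77 ± 0.06, adjusted p = 1.9e-20). In all 3 genes the gap between groups was many times the gap between replicates. FDXR, which passes electrons to ferredoxin in mitochondria and whose promoter is shown above, had 1778 and 1745 at 12 h and 172 and 187 in DMSO (3.29 ± 0.07, adjusted p = 1.3e-18).

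The remaining 9 of these genes lay between log2 changes of 2.72 and 3.55. TNFRSF10C, a decoy receptor for the death ligand TRAIL, had 192 and 211 at 12 h and 22.5 and 11.8 in DMSO. The Ras-related GTPase RRAD had 198 and 194 at 12 h and 18.6 and 18.3 in DMSO. ACER2, a ceramidase of the Golgi, had 249 and 228 at 12 h and 23.5 and 45.1 in DMSO, and its DMSO replicates differed more from each other than those of RRAD. LINC01759 had 101 and 99.9 at 12 h and 7.82 and 10.7 in DMSO (3.32 ± 0.21, adjusted p = 3.7e-11). In GENCODE v29 it lies inside MIR34AHG, the host gene of miR-34a, on the opposite strand, and the strand setting of the counting is not given, so reads of these 2 genes cannot be told apart with certainty. WDR63, VWCE, FAM198B and TSPAN11 had log2 changes of 3.53 ± 0.12, 3.53 ± 0.17, 3.00 ± 0.07 and 2.72 ± 0.19.

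**Figure D2:**
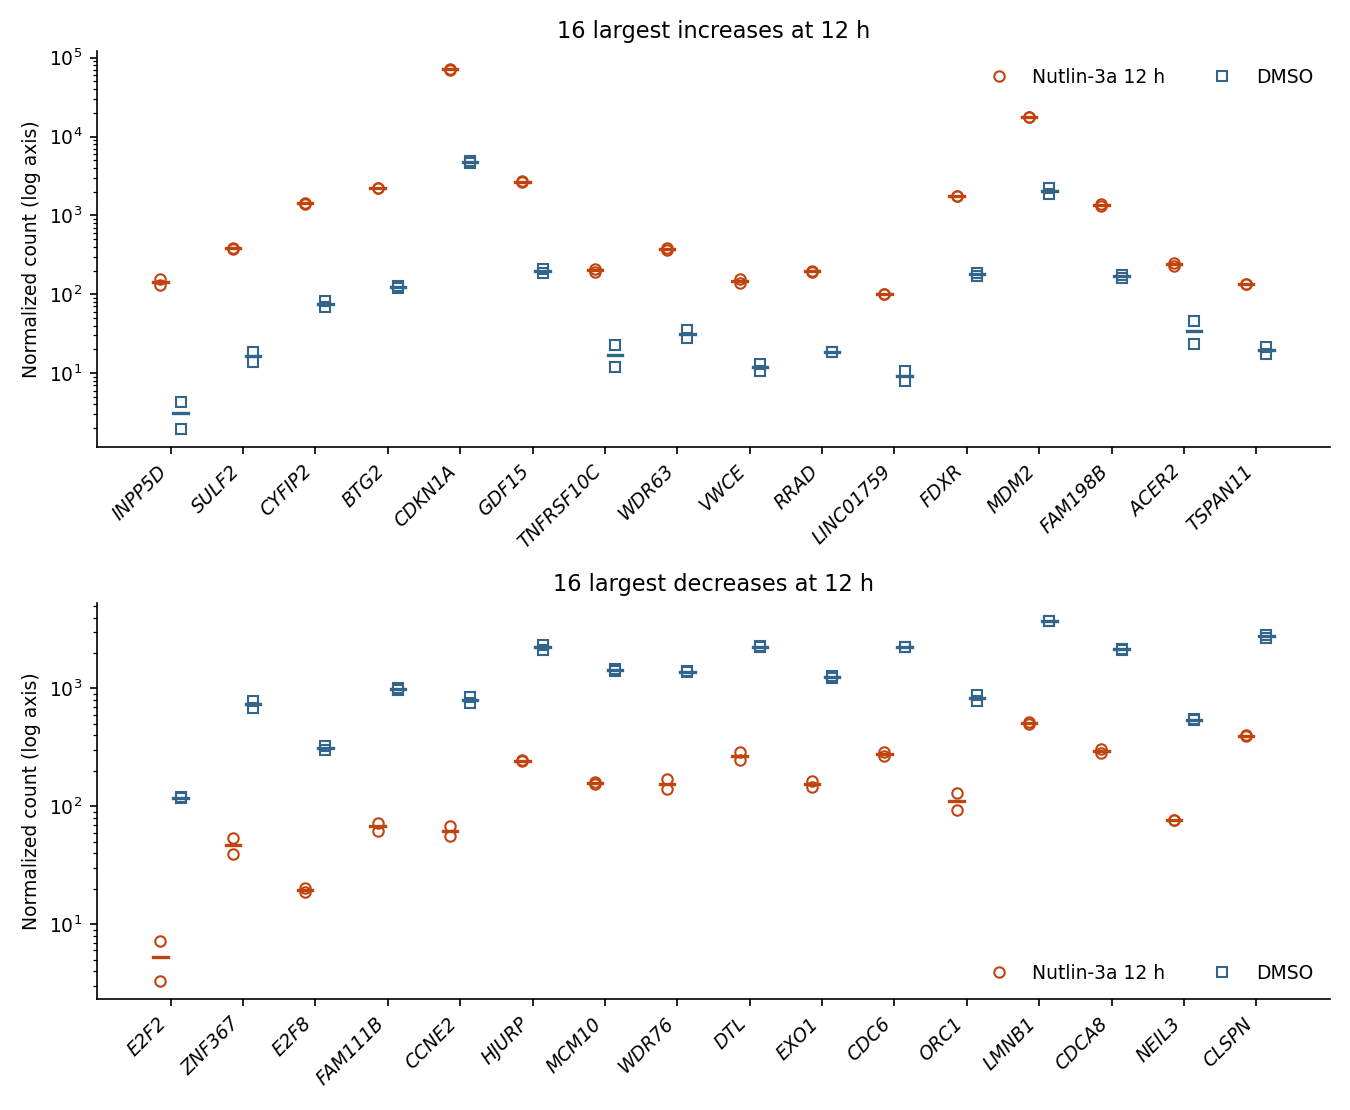
Normalized counts (log axis) of the 16 largest increases (upper panel) and 16 largest decreases (lower panel), with 1 symbol for each library, 12 h circles left of DMSO squares, and a bar at the mean of each pair. The genes were chosen with 12 h and DMSO libraries that do not overlap; the DMSO symbols of INPP5D and the 12 h symbols of E2F2 lie lowest, at under 8.

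Of 23 genes known as p53 targets in cell-cycle arrest, 20 rose (87.0%, against 18.5% of all genes) and 1 fell, and their median log2 change was 0.83, against 0.01 over all genes. After BTG2 and CDKN1A the clearest were TRIM22, a RING-finger protein that interferon also induces (1741 and 1832 at 12 h and 328 and 349 in DMSO, log2 change 2.40 ± 0.06), and SESN1, a sestrin that restrains mTORC1 (1325 and 1435 at 12 h and 263 and 276 in DMSO, 2.35 ± 0.07). SESN2, its paralogue, had 1674 and 1631 at 12 h and 537 and 509 in DMSO (1.66 ± 0.06). The stress kinase gene PLK3 had 1611 and 1566 at 12 h and 614 and 540.4 in DMSO (1.46 ± 0.07). E2F7, a repressive E2F that p53 is known to induce, went the other way with 2122 and 2015 at 12 h and 2472 and 2599 in DMSO (−0.29 ± 0.06, adjusted p = 0.00026). At 6 h it stood at 3908 and 3611, above both other groups. GADD45A, named here after its values were seen, had a log2 change of 1.08 ± 0.05.

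For p53 targets in cell death, 20 of 25 rose (80.0%, against 18.5% of all genes) and 2 fell. Their median log2 change was 1.16. Receptors were among them. FAS had 3189 and 3418 at 12 h and 918 and 922 in DMSO (1.84 ± 0.05), and TNFRSF10B, a TRAIL receptor with a death domain, had 8645 and 8816 at 12 h and 2343 and 2387 in DMSO (1.88 ± 0.04). Inside the cell, PIDD1, a scaffold for caspase activation, had 1104 and 1005 at 12 h and 204 and 225 in DMSO (2.29 ± 0.08), SPATA18, which acts in mitochondrial quality control, had 1309 and 1310.1 at 12 h and 200.4 and 209 in DMSO (2.67 ± 0.08), and the oxidoreductase TP53I3 had 3060.1 and 3168 at 12 h and 903 and 914 in DMSO (1.78 ± 0.05). BBC3 and BAX, which encode the death inducers PUMA and BAX and are named after their values were seen, had log2 changes of 2.47 ± 0.09 and 1.19 ± 0.05. SIVA1, which acts in death receptor signalling (749.7 and 670.1 at 12 h and 844 and 1061 in DMSO, −0.42 ± 0.09) and BID, a BH3-only protein (1224 and 1219.6 at 12 h and 1420.2 and 1318 in DMSO, −0.16 ± 0.06), fell. BID lost its call under 10 alternatives and SIVA1 under 1.

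Of 26 targets in metabolism, redox control and autophagy, 19 rose (73.1%, against 18.5% of all genes) and 0 fell. Their median was 0.68. CMBL, a hydrolase, had 1803 and 1765 at 12 h and 325 and 363 in DMSO (2.37 ± 0.07). RRM2B, the p53-induced small subunit of ribonucleotide reductase, had 4203 and 4311 at 12 h and 957 and 1113 in DMSO (2.04 ± 0.06). TIGAR, a phosphatase that lowers fructose-2,6-bisphosphate, had 2742 and 3004 at 12 h and 706 and 911 in DMSO (1.84 ± 0.08), and ISCU, an iron-sulfur cluster scaffold, 2598 and 2661 at 12 h and 1347 and 1242 in DMSO (1.02 ± 0.05).

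Of 10 DNA repair targets tested, 6 rose (60%) and 2 fell (20%), against 18.5% and 21.4% of all genes. The share that fell was thus near the background. DDB2, which recognizes ultraviolet lesions, had 1360.2 and 1369 at 12 h and 542 and 507 in DMSO (1.38 ± 0.06), the helicase gene ASCC3 had 10449 and 10355 at 12 h and 4626 and 4944 in DMSO (1.12 ± 0.05), and POLH, a translesion polymerase, had 2493 and 2440.2 at 12 h and 1479.8 and 1436 in DMSO (0.76 ± 0.05). RRM2B, named above, REV3L (0.51 ± 0.05), the catalytic subunit of another translesion polymerase, and ERCC5 (0.46 ± 0.18), a nuclease of excision repair, also rose, but ERCC5 lost its call under 10 alternatives. FANCC, of the Fanconi anaemia pathway, fell with 320.0 and 313 at 12 h and 546 and 554 in DMSO (−0.80 ± 0.08). POLK and MGMT, a polymerase and a methyltransferase, had log2 changes of −0.01 ± 0.07 and 0.08 ± 0.09 and did not pass the test.

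Among targets at the cell surface and in signalling, 36 of 40 rose (90.0%, against 18.5% of all genes) and 0 fell. Their median was 0.89. Beside INPP5D, SULF2, CYFIP2, GDF15 and RRAD, they included EDA2R, a receptor for ectodysplasin A2 (1266 and 1255 at 12 h and 309 and 293 in DMSO, 2.06 ± 0.06), EFNB1, an ephrin (2089 and 1985 at 12 h and 777 and 712 in DMSO, 1.45 ± 0.06), the ephrin receptor EPHA2 (4943 and 5014 at 12 h and 3068 and 3006 in DMSO, 0.71 ± 0.05) and the cytokine LIF (965 and 1121 at 12 h and 583 and 547 in DMSO, 0.88 ± 0.07).

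Of 8 tested long non-coding RNAs linked to p53, 7 rose (87.5%, against 18.5% of all genes) and 0 fell. LINC00475 had 119 and 125 at 12 h and 46.9 and 36.5 in DMSO (1.53 ± 0.17) and MIR34AHG had 590.1 and 585 at 12 h and 231 and 229 in DMSO (1.35 ± 0.08), with the overlap noted above. TP53TG1 had 396 and 405 at 12 h and 189.6 and 205 in DMSO (1.02 ± 0.09). NEAT1, the architectural RNA of paraspeckles, had 2151 and 2314 at 12 h and 1116 and 1290.2 in DMSO (0.89 ± 0.06), and MEG3 had 1841 and 1958 at 12 h and 1122 and 1148 in DMSO (0.74 ± 0.06). MALAT1 and LINC-PINT had log2 changes of 0.54 ± 0.07 and 0.37 ± 0.09, and GAS5 was not called (1059.9 and 1075 at 12 h and 983 and 1196 in DMSO).

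**Figure D3:**
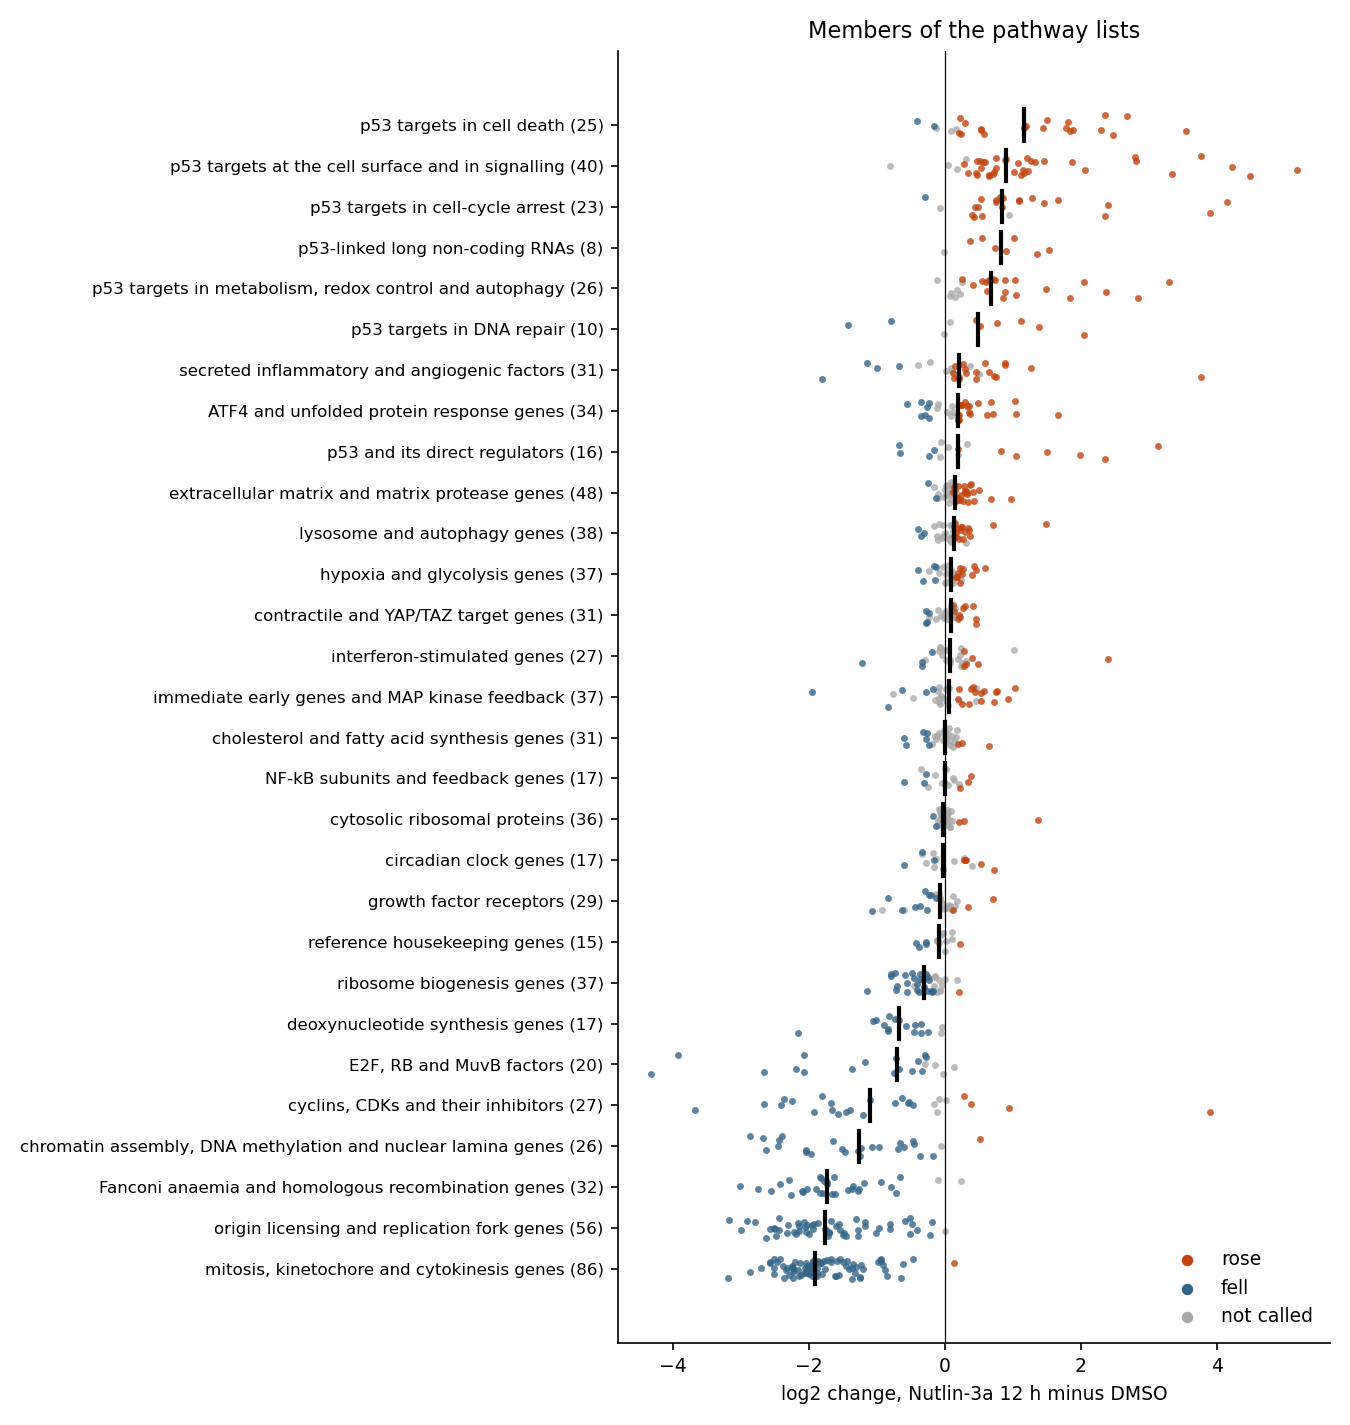
Log2 change at 12 h relative to DMSO of each tested member of 29 pathway lists, with the number tested in parentheses; points are genes coloured by call and black bars are list medians. Medians run from 1.16 for p53 targets in cell death down to −1.92 for genes of mitosis. The other p53 target lists also lie above 0, and the other lists of cell division, replication, recombination and chromatin genes below it. Most remaining lists lie near 0.

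Genes of cell division were lower as a group, many of them by more than 2-fold. In bulk RNA, fewer cells of a type, such as cells in S phase or mitosis, and less RNA per cell cannot be told apart. The cyclin and CDK list had 19 of 27 members that fell, against a background of 21.4%, and 4 that rose. CCNE2, a cyclin E that drives entry into S phase, had 55.7 and 67.6 at 12 h and 758 and 845 in DMSO (log2 change −3.68 ± 0.13, adjusted p = 4.1e-15). CDC25A, a phosphatase that activates CDKs, had 163 and 168 at 12 h and 1044 and 1051 in DMSO (−2.66 ± 0.09). Cyclin A2 RNA (CCNA2) stood at 794 and 863 at 12 h and 4328 and 4275 in DMSO (−2.38 ± 0.06), that of cyclin B1 (CCNB1) at 1446 and 1286 at 12 h and 4217 and 4419.7 in DMSO (−1.66 ± 0.06), and that of cyclin B2 (CCNB2) at 689.9 and 721 at 12 h and 2128 and 2088 in DMSO (−1.58 ± 0.06). The members that rose were CDKN1A, the D-type cyclins CCND2 (929.7 and 889.7 at 12 h and 473 and 477 in DMSO, 0.94 ± 0.07) and CCND1 (55327 and 56420.4 at 12 h and 41839 and 44044 in DMSO, 0.38 ± 0.05), and the CDK inhibitor CDKN2B (454 and 466 at 12 h and 396 and 365 in DMSO, 0.27 ± 0.09), whose call was lost under 4 alternatives. Cyclins D1 and D2 and the later cyclins thus differed in direction.

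Of 20 E2F, RB and MuvB factors, 16 fell (80.0%, against 21.4% of all genes) and 0 rose. E2F2 had the largest decrease of all genes with a mean of at least 50, with 3.27 and 7.28 at 12 h and 117 and 120.3 in DMSO (−4.33 ± 0.46, adjusted p = 1.5e-07), and its 12 h values are near the floor. E2F8, a repressive E2F, had 20.5 and 18.7 at 12 h and 301 and 328 in DMSO (−3.94 ± 0.17), and E2F1, an activator of S-phase genes, had 192 and 190.4 at 12 h and 1194 and 1255 in DMSO (−2.67 ± 0.08). The 3 further regulators named next, of the same promoters, were lower as well. MYBL2, which turns MuvB into an activator, had 417 and 416 at 12 h and 2121 and 1725 in DMSO (−2.20 ± 0.09), LIN9, a MuvB subunit, had 131 and 138 at 12 h and 546 and 594 in DMSO (−2.07 ± 0.09), and FOXM1, the transcription factor of late cell-cycle genes, had 1555 and 1448 at 12 h and 4278 and 3529 in DMSO (−1.37 ± 0.07). RBL1, the RB relative p107, had 339.6 and 329.9 at 12 h and 1396 and 1420.2 in DMSO (−2.07 ± 0.07).

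Origin licensing and replication fork genes fell almost without exception. Of 56, 55 fell (98.2%, against 21.4% of all genes), 45 of them at least 2-fold, and the median log2 change was −1.76. CDC6, which loads the MCM helicase, had 291 and 269.5 at 12 h and 2242 and 2257 in DMSO, or 8.01-fold lower at 12 h (adjusted p = 1.4e-17), and ORC1, the origin recognition subunit, had 93.3 and 129 at 12 h and 884 and 784 in DMSO (−2.91 ± 0.13). MCM10, an initiation factor, had 162 and 155 at 12 h and 1418 and 1467 in DMSO (−3.18 ± 0.09). The helicase subunits MCM2, MCM3, MCM4 and MCM7 lay between log2 changes of −2.57 and −2.03, with 773 and 770.0 at 12 h and 4328 and 4332 in DMSO for MCM3. CLSPN, the fork protein claspin, had 395 and 401 at 12 h and 2688 and 2842 in DMSO (−2.79 ± 0.07). PCNA, the sliding clamp, which is also known as a p53 target and is named after its values were seen, had 2942 and 3123 at 12 h and 3378 and 3551 in DMSO (−0.19 ± 0.05, adjusted p = 0.0066), a far smaller change than CDC6.

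An E2F site with the letters TTTCCCGC or TTTGGCGC on either strand was found in 17 of the 46 promoters of these genes in the RefSeq table (37.0%), against 2.31% of all 27305 windows of the table and 3.69% of the 11054 windows of tested genes. Windows were present for 82.1% of the list. In CDC6 the match begins at base 8 after the start site, and in MCM3 at base −174. These are matches of letters only, and binding was not measured.

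Deoxynucleotide synthesis genes fell in 15 of 17 cases (88.2%, against 21.4% of all genes) and rose in 0. RRM2, the S-phase small subunit of ribonucleotide reductase, had 2124 and 2216 at 12 h and 9577 and 9975 in DMSO (−2.17 ± 0.05, adjusted p = 3.8e-18), whereas its p53-induced counterpart RRM2B, given above, rose. RRM1, the large subunit, had 3207 and 3249 at 12 h and 6679 and 6825 in DMSO (−1.06 ± 0.05). Of the salvage kinases TK1 had 2298 and 2174 at 12 h and 3667 and 3815 in DMSO (−0.74 ± 0.05) and DCK 1129 and 1119 at 12 h and 1883 and 2142 in DMSO (−0.84 ± 0.06). PAICS and GMPS, enzymes of purine synthesis, had log2 changes of −0.84 ± 0.05 and −0.90 ± 0.06.

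Among 86 genes of mitosis, the kinetochore and cytokinesis, 85 fell (98.8%, against 21.4% of all genes), 75 of them at least 2-fold. The median log2 change was −1.92, the lowest of all lists. HJURP, the chaperone that deposits CENP-A at centromeres, had 241 and 248 at 12 h and 2329 and 2141 in DMSO (−3.19 ± 0.07, adjusted p = 4e-18), and CENPA itself had 94.9 and 91.6 at 12 h and 529 and 595 in DMSO (−2.58 ± 0.11). CDCA8, a subunit of the chromosomal passenger complex, had 309 and 281 at 12 h and 2173 and 2141 in DMSO (−2.87 ± 0.07). KIF2C, a kinesin that removes tubulin from microtubule ends, had 497 and 481 at 12 h and 2558 and 2577 in DMSO (−2.39 ± 0.06), and ASPM, a spindle pole protein, had 1069.7 and 1072 at 12 h and 5167 and 5414 in DMSO (−2.30 ± 0.05). MKI67, the proliferation marker Ki-67, had 2449 and 2392 at 12 h and 14630.0 and 13173 in DMSO (−2.52 ± 0.05, adjusted p = 3.2e-18). TOP2A, a topoisomerase needed to separate chromosomes, had 3762 and 3752 at 12 h and 13364 and 14301 in DMSO (−1.88 ± 0.05). CDC16, an anaphase-promoting complex subunit, was the 1 member that rose (2972 and 3049 at 12 h and 2664 and 2824 in DMSO, 0.13 ± 0.05), and its call was lost under 8 alternatives.

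The CHR letters TTTGAA on either strand were found in 46 of the 70 promoters of mitosis genes in the table (65.7%), against 15.4% of all windows and 9.87% of those of tested genes, with windows present for 81.4% of the list. Both CHR and CCAAT letters were in 48.6% of them, against 6.08% and 4.04%. Of the replication list 2.17% held CHR letters, and of the mitosis list 7.14% held an E2F site, so the 2 lists differed in which letters their promoters carried. In CCNB2 the CHR match begins at base −29 behind CCAAT boxes at −120, −87 and −54, and in MKI67 there are CHR matches at −47 and −29. The p53 response element (2 half-sites with a spacer of 0 to 13 bases, at most 2 mismatches and the core C and G kept) begins at −60 with 0 mismatches and no spacer in LINC01759, and at −31 with 2 mismatches and a spacer of 10 bases in FDXR. It was in 2.94% of all windows, in 3 of 23 promoters of p53 targets in metabolism, redox control and autophagy, and in 0 of 33 of those at the cell surface and in signalling, while the arrest and death lists had windows for under 80% of their genes. Among genes at least 2-fold higher and lower, 68.4% and 79.8% had a window, under the 80% set for such a check, so no share is read for them.

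Repair by homologous recombination and the Fanconi anaemia pathway showed the same direction. Of 32 genes 30 were lower (93.8%, against 21.4% of all genes) and 0 higher (median −1.73). EXO1, which resects DNA ends, had 165 and 145 at 12 h and 1277 and 1229 in DMSO (−3.01 ± 0.10). The helicase BLM had 149.8 and 148 at 12 h and 866 and 906 in DMSO (−2.57 ± 0.09), BRCA1 had 372 and 349.6 at 12 h and 1536 and 1587 in DMSO (−2.11 ± 0.08) and BRCA2 had 250.4 and 268 at 12 h and 1236 and 1314 in DMSO (−2.29 ± 0.08). BRIP1 and FANCI, a helicase and a clamp subunit of the pathway, had log2 changes of −1.73 ± 0.06 and −1.66 ± 0.06.

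Of 26 genes for chromatin assembly, DNA methylation and the nuclear lamina, 24 fell (92.3%, against 21.4% of all genes). LMNB1, a B-type lamin whose loss is a marker of senescent fibroblasts, had 497 and 515 at 12 h and 3709 and 3718 in DMSO (−2.87 ± 0.06, adjusted p = 4e-18), while LMNA, the A-type lamin, rose with 34155 and 34458 at 12 h and 23835 and 24058 in DMSO (0.52 ± 0.04, adjusted p = 2.3e-09). UHRF1, which guides maintenance methylation, had 532 and 502 at 12 h and 2812 and 2858 in DMSO (−2.45 ± 0.07), the chromatin protein HMGB2 had 858 and 980.2 at 12 h and 4959 and 5018 in DMSO (−2.44 ± 0.06), and CHAF1A, a histone chaperone, had 540.2 and 521 at 12 h and 2268 and 2144 in DMSO (−2.05 ± 0.07). Outside the lists, FAM111B had 72.8 and 62.4 at 12 h and 965 and 1013 in DMSO (−3.85 ± 0.12), ZNF367, a zinc-finger protein, had 39.3 and 54.1 at 12 h and 687 and 781 in DMSO (−3.96 ± 0.15) and WDR76 had 171 and 139 at 12 h and 1371 and 1407 in DMSO (−3.16 ± 0.10). DTL, a substrate receptor of a ubiquitin ligase, and NEIL3, a DNA glycosylase, had log2 changes of −3.07 ± 0.08 and −2.82 ± 0.12.

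Ribosome biogenesis genes were mostly lower by small amounts, with a median log2 change of −0.31. Of 37, 25 fell (67.6%, against 21.4% of all genes) and 1 rose. POLR1E, a subunit of RNA polymerase I, had 634 and 592 at 12 h and 1386 and 1339.7 in DMSO (−1.15 ± 0.07, adjusted p = 1.6e-11). NOP56, a core protein of box C/D particles, had 1952 and 2073 at 12 h and 3526 and 3471 in DMSO (−0.80 ± 0.05), and DKC1, which modifies ribosomal RNA, had 1959 and 2082 at 12 h and 3202 and 3409 in DMSO (−0.71 ± 0.05). NCL, the nucleolar protein nucleolin, had 16145 and 17004 at 12 h and 25365 and 24364 in DMSO (−0.59 ± 0.04). Of 36 cytosolic ribosomal proteins 31 were not called, and their median was −0.03. The largest change was that of RPS27L, a p53-induced paralogue of RPS27, with 6628 and 7379.8 at 12 h and 2487 and 2958 in DMSO (1.37 ± 0.07, adjusted p = 6.3e-13). The other calls in that list (RPL10 and RPS14 up, RPL14 and RPL7A down) were each lost under 2 or more alternatives, and without DMSO replicate 2 there were 7 increases and 11 decreases.

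Stress-response genes split. Of 34 genes of the ATF4 and unfolded protein responses, 21 rose (61.8%) and 7 fell (20.6%), against 18.5% and 21.4% of all genes. Their median was 0.20. The chaperone HSPA5 of the endoplasmic reticulum had 47129.6 and 47818 at 12 h and 29628 and 30084 in DMSO (0.67 ± 0.04, adjusted p = 4.3e-11), its cochaperone DNAJB9 had 1359 and 1367 at 12 h and 823 and 966 in DMSO (0.61 ± 0.07), and HERPUD1, which acts in degradation from that compartment, had 3251 and 3178 at 12 h and 1926 and 2022 in DMSO (0.70 ± 0.05). DDIT4, an mTORC1 inhibitor that p53 also induces, had 1691 and 1656 at 12 h and 858 and 768 in DMSO (1.04 ± 0.06). The decreases included amino acid and one-carbon genes. The arginine transporter SLC7A1 had 3064 and 2969 at 12 h and 4310.4 and 4546 in DMSO (−0.55 ± 0.05), and the enzymes MTHFD2, PHGDH and SHMT2 had log2 changes of −0.36 ± 0.06, −0.35 ± 0.05 and −0.30 ± 0.05. Among the most abundant transcripts by reads, the cytosolic chaperones HSPA8 (63505 and 61857 at 12 h and 86573 and 82478 in DMSO, −0.43 ± 0.04) and HSP90AA1 (34180.3 and 34984 at 12 h and 43366 and 46684 in DMSO, −0.38 ± 0.05) fell.

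Extracellular matrix genes had 28 of 48 members that rose (58.3%) and 2 that fell (4.17%), against 18.5% and 21.4% of all genes. Their median log2 change was only 0.15. The largest was COL7A1, the collagen of anchoring fibrils, with 6710.4 and 6634 at 12 h and 3339.8 and 3465 in DMSO (0.97 ± 0.05, adjusted p = 6.5e-13). SERPINE2, a protease inhibitor, had 12079 and 12189 at 12 h and 7591 and 7585 in DMSO (0.68 ± 0.04), TIMP3, an inhibitor of metalloproteinases, had 31308 and 31093 at 12 h and 21394 and 22834 in DMSO (0.50 ± 0.04), and the basement membrane proteoglycan HSPG2 had 16082 and 15694 at 12 h and 12344 and 11416 in DMSO (0.42 ± 0.05). COL1A1 had 589696 and 574879 at 12 h and 480153 and 455213 in DMSO (0.32 ± 0.05, adjusted p = 5e-05), or 2.12% of gene reads at 12 h and 1.72% in DMSO. Quantile normalization gives the highest ranks the same value in every library, so it cannot show a change of COL1A1. Across the list 17 members rose with it, 17 with no intensity trend and 16 without 12 h replicate 1.

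Lysosome and autophagy genes rose in 18 of 38 cases (47.4%) and fell in 3 (7.89%), against 18.5% and 21.4% of all genes. Their median was 0.13. FUCA1, a fucosidase, was in front (93.3 and 105 at 12 h and 31.3 and 38.7 in DMSO, 1.48 ± 0.17, adjusted p = 5.6e-07). DRAM1, a lysosomal membrane protein and p53 target, had 2414 and 2517 at 12 h and 1479 and 1550.2 in DMSO (0.70 ± 0.05). NPC1, which moves cholesterol out of lysosomes, fell, with 2618 and 2554 at 12 h and 3200.1 and 3223 in DMSO (−0.31 ± 0.05). Without 12 h replicate 1 the increases numbered 10, and without DMSO replicate 2 the decreases numbered 8. In the contractile and YAP/TAZ list 10 of 31 rose (32.3%) and 4 fell (12.9%). Fewer fell without 12 h replicate 1, and 0 fell with no intensity trend. ID1, an inhibitor of basic helix-loop-helix factors, had 5281 and 5349.6 at 12 h and 3736 and 4048 in DMSO (0.45 ± 0.05) and AJUBA, a LIM protein, 2910.3 and 2745 at 12 h and 2054 and 2217 in DMSO (0.41 ± 0.05), whereas CNN1, calponin, had 2567 and 2659 at 12 h and 3446 and 2911 in DMSO (−0.28 ± 0.06).

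Secreted factors rose more often than genes at large and fell less often. Of 31 tested, 19 rose (61.3%) and 4 fell (12.9%), against 18.5% and 21.4% of all genes. Growth factors and cytokines of the IL6 family were among the increases. NRG1, a ligand of ERBB receptors, had 1459 and 1426 at 12 h and 595 and 602 in DMSO (1.27 ± 0.06, adjusted p = 3.5e-13), IL11 had 4118 and 4177 at 12 h and 2325 and 2605 in DMSO (0.75 ± 0.06) and FGF2 had 4625 and 4849 at 12 h and 2763 and 3009 in DMSO (0.72 ± 0.05). IL6 had 124 and 116 at 12 h and 86 and 88.1 in DMSO (0.45 ± 0.12), with a call lost under 2 alternatives. Of the 4 that fell, CXCL8, which attracts neutrophils, had 55.7 and 55.2 at 12 h and 131 and 118 in DMSO (−1.15 ± 0.16, adjusted p = 8.8e-06), CCL2, which attracts monocytes, had 426 and 447 at 12 h and 697 and 697 in DMSO (−0.67 ± 0.09) and TNFAIP6 had 31.1 and 23.9 at 12 h and 46.9 and 66.6 in DMSO (−1.01 ± 0.22). CXCL1 had 2.46 and 1.04 at 12 h and 10.8 and 6.45 in DMSO, values near the floor, and lost its call under 5 alternatives. Among genes with a mean of at least 50, 2 of the list fell.

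In the NF-kB list 3 of 17 rose and 3 fell, which is near the background in both directions, and 5 rose with quantile normalization. BIRC3, an inhibitor of apoptosis, had 159.6 and 166 at 12 h and 216 and 285 in DMSO (−0.60 ± 0.13), NFKB1, the p105 subunit, had 1126 and 1143 at 12 h and 1377 and 1421 in DMSO (−0.30 ± 0.06), and NFKBIZ, a nuclear IkB protein, had 854 and 888 at 12 h and 674 and 702 in DMSO (0.34 ± 0.07). Interferon-stimulated genes had 6 of 27 that rose (22.2%) and 4 that fell (14.8%), with fewer of each without 12 h replicate 2. Both shares are near the 18.5% and 21.4% of all genes. TRIM22 led the increases, as given above, while OAS3, a sensor of double-stranded RNA, fell with 185 and 156 at 12 h and 427 and 367 in DMSO (−1.22 ± 0.11, adjusted p = 1.2e-08). STAT2 had 2304 and 2072 at 12 h and 1658 and 1661 in DMSO (0.40 ± 0.06).

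Of 37 immediate early and MAP kinase feedback genes, 15 rose (40.5%) and 5 fell (13.5%), with fewer increases without 12 h replicate 2. Over all genes 18.5% rose and 21.4% fell. Members of the MYC network differed in direction: MYC had 854 and 848 at 12 h and 1559 and 1486 in DMSO (−0.84 ± 0.06, adjusted p = 3.7e-10), and of the genes encoding MYC antagonists MXD4 had 2868 and 2876 at 12 h and 1529.7 and 1490.0 in DMSO (0.93 ± 0.05, adjusted p = 1.3e-11) and MXD3 72.8 and 64.5 at 12 h and 283 and 256 in DMSO (−1.96 ± 0.13, adjusted p = 9.7e-11). The AP-1 gene FOSL1 had 4799 and 4679.5 at 12 h and 7802 and 6874 in DMSO (−0.63 ± 0.06), and DUSP1, a phosphatase of MAP kinases, had 7983 and 8281 at 12 h and 5389 and 5947 in DMSO (0.52 ± 0.05). Growth factor receptors had 10 of 29 that fell (34.5%) and 3 that rose (10.3%), with 5 increases under TMM scaling. INSR, the insulin receptor, had 303 and 297 at 12 h and 536 and 543 in DMSO (−0.84 ± 0.08), FGFR3 had 72 and 84.3 at 12 h and 162 and 168 in DMSO (−1.07 ± 0.16), and PDGFRA, a receptor typical of fibroblasts, had 3873 and 3899 at 12 h and 5365 and 5179 in DMSO (−0.44 ± 0.05).

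Hypoxia and glycolysis genes had 11 of 37 that rose (29.7%) and 5 that fell (13.5%), against 18.5% and 21.4% of all genes. Decreases numbered 2 with no intensity trend, and were also fewer when either 12 h replicate was left out. NDRG1 had 8932 and 8775 at 12 h and 6009 and 5744 in DMSO (0.59 ± 0.04) and the lactate exporter SLC16A3 had 17555 and 17659.7 at 12 h and 12639 and 14162 in DMSO (0.40 ± 0.05), while the hexokinase gene HK2 had 2451 and 2417 at 12 h and 2958 and 3125 in DMSO (−0.32 ± 0.05). For cholesterol and fatty acid synthesis, 3 of 31 rose (9.68%) and 6 fell (19.4%). Increases ranged from 1 (with no intensity trend) to 7 (with quantile normalization), with 5 decreases in that last setting. STARD4, a sterol carrier, had 1996 and 2042 at 12 h and 1173 and 1425 in DMSO (0.64 ± 0.07). Among 17 clock genes 5 rose (29.4%) and 3 fell (17.6%). BHLHE40, a repressor in the clock, had 3313 and 3264 at 12 h and 2111 and 1873 in DMSO (0.73 ± 0.06) and PER3 had 295 and 258 at 12 h and 422 and 418 in DMSO (−0.61 ± 0.09). Of 15 housekeeping genes 1 rose (6.67%) and 4 fell (26.7%), with 0 to 3 increases over the alternatives. Log2 changes in this list ran from −0.43 to 0.22, and GAPDH and ACTB were not among the called members. GAPDH had 148204 and 139898 at 12 h and 153567 and 132954 in DMSO and ACTB 248842 and 234925 at 12 h and 274166 and 247021 in DMSO, and their groups overlapped.

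Of 19 fibroblast markers 7 rose (36.8%) and 3 fell (15.8%), against 18.5% and 21.4% of all genes, with a median of 0.07. Under quantile normalization 3 rose, fewer rose without 12 h replicate 2, and more fell without DMSO replicate 2. The transcription factor TWIST1 had 400.2 and 429 at 12 h and 664 and 572 in DMSO (−0.57 ± 0.09). The keratins, which simple epithelia share with cultured fibroblasts, differed in direction, with KRT19 at 369 and 365 at 12 h and 211 and 236 in DMSO (0.71 ± 0.10) and KRT18 at 1851 and 1770.0 at 12 h and 2175 and 2158 in DMSO (−0.26 ± 0.05).

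The genes that rose took 34.4% of gene reads at 12 h and 28.3% in DMSO, and those that fell took 16.9% at 12 h and 23.0% in DMSO. The calls fix these directions. Genes at least 2-fold higher held 1.04% of gene reads at 12 h and 0.288% in DMSO, and genes at least 2-fold lower 0.770% at 12 h and 2.50% in DMSO, so most of the shift in reads lay in genes with changes under 2-fold. Abundant transcripts that gained reads included COL1A2, with 1.13% at 12 h and 0.903% in DMSO and a call that quantile normalization removed. GREM1, a secreted BMP antagonist, lost reads, with 0.157% at 12 h and 0.21% in DMSO (42658 and 43762 at 12 h and 57754 and 56605 in DMSO, log2 change −0.40 ± 0.04).

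Some genes had no more than 3 reads in either DMSO library and more in both 12 h libraries. KRT17, a keratin, had 59 and 34 reads at 12 h and 2 and 2 in DMSO. CLCA2, a p53 target known from epithelial cells, had 32 and 18 reads at 12 h and 1 and 1 in DMSO, and UNC5B-AS1, an antisense RNA, had 15 and 12 at 12 h and 1 and 0 in DMSO. MYH16 had 27 and 31 reads at 12 h and 2 and 3 in DMSO. In the other direction 3 genes were at 3 or fewer reads in both 12 h libraries, namely TCTE3, CXCL1 and ZNF732, and ZNF732 had 3 and 3 reads at 12 h and 23 and 13 in DMSO. At such counts the size of a change cannot be read, so no fold is given.

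The 12 h libraries were also set against those of cells given Nutlin-3a for 6 h. As stated above, exposure cannot be told apart from time in culture, so the differences may hold both. At 12 h 2031 genes were higher (14.4%) and 2400 lower (17.1%) than at 6 h. Without 12 h replicate 1 the higher genes numbered 1274, and without 12 h replicate 2 they numbered 1248. The comparison shares the 12 h libraries with that against DMSO. MDM2 did not pass the test between the times, with 17639 and 17872 at 12 h and 17569 and 15770.5 at 6 h and a difference of 0.09 (adjusted p = 0.26). CDKN1A was higher at 12 h, with 52553 and 54207 at 6 h (12 h minus 6 h 0.43, adjusted p = 2.7e-07).

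Several genes were higher at 12 h than in both other groups. SULF2 had 386 and 377 at 12 h and 92.6 and 93.2 at 6 h (12 h minus 6 h 2.03, adjusted p = 8.6e-10). CYFIP2 had 1455 and 1407 at 12 h and 483 and 449 at 6 h (1.62). SCN2A, a sodium channel gene, had 75.3 and 70.9 in DMSO, 140.1 and 131 at 6 h and 355 and 343 at 12 h. EPS8L2, an actin-binding protein, had 416 and 417 in DMSO, 685 and 626 at 6 h and 1569.8 and 1652 at 12 h. The 6 h values came lowest in NR4A2, an orphan nuclear receptor, and PDE7B, a phosphodiesterase of cyclic AMP. NR4A2 had 128 and 124 in DMSO, 30 and 42.3 at 6 h and 199.7 and 224 at 12 h (2.54 between the times). PDE7B had 353 and 332 in DMSO, 110.1 and 96.1 at 6 h and 516 and 584 at 12 h (2.41). NR1D1, SSTR1, BTBD11 and ANKEF1 shared that order.

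Other genes were higher than in DMSO at 12 h but lower than at 6 h. GDF15 had 2734 and 2629 at 12 h and 4587 and 4450.0 at 6 h (−0.75, adjusted p = 4.2e-09). ANGPTL4, a secreted inhibitor of lipoprotein lipase, had 359 and 423 in DMSO, 2213 and 2249.5 at 6 h and 755 and 686 at 12 h. HMOX1, heme oxygenase, had 379 and 415 in DMSO, 1323 and 1414 at 6 h and 567 and 627 at 12 h. TSC22D3, a glucocorticoid-induced gene, had 406 and 420.1 in DMSO, 1159.5 and 1249 at 6 h and 536 and 528 at 12 h. In all 4 genes the 9 h mean lay between those of 6 and 12 h.

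Genes that were below DMSO at 12 h but higher than at 6 h included MYBL1, a MYB family factor, with 3969 and 4407 in DMSO, 1616 and 1634 at 6 h and 3202 and 3420.4 at 12 h. KIT, the stem cell factor receptor, had 319 and 299 in DMSO, 125 and 122 at 6 h and 201 and 196 at 12 h. CEMIP, which depolymerizes hyaluronan, and the chloride channel gene ANO1 went the other way and were highest at 6 h. CEMIP had 1634 and 1676 in DMSO, 4333 and 4405 at 6 h and 1294 and 1304 at 12 h, and ANO1 had 319 and 348 in DMSO, 849 and 913 at 6 h and 223 and 252 at 12 h. Of the cyclin and CDK list 17 of 27 were lower and 3 higher at 12 h than at 6 h, against 17.1% and 14.4% of all genes. HJURP had 241 and 248 at 12 h and 936 and 996 at 6 h (−1.98), and MKI67 had 2449 and 2392 at 12 h and 7686 and 7679 at 6 h (−1.67). Of the mitosis list 85 of 86 were lower at 12 h than at 6 h and 0 higher, and of the replication list 49 of 56 were lower and 1 higher.

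**Figure D4:**
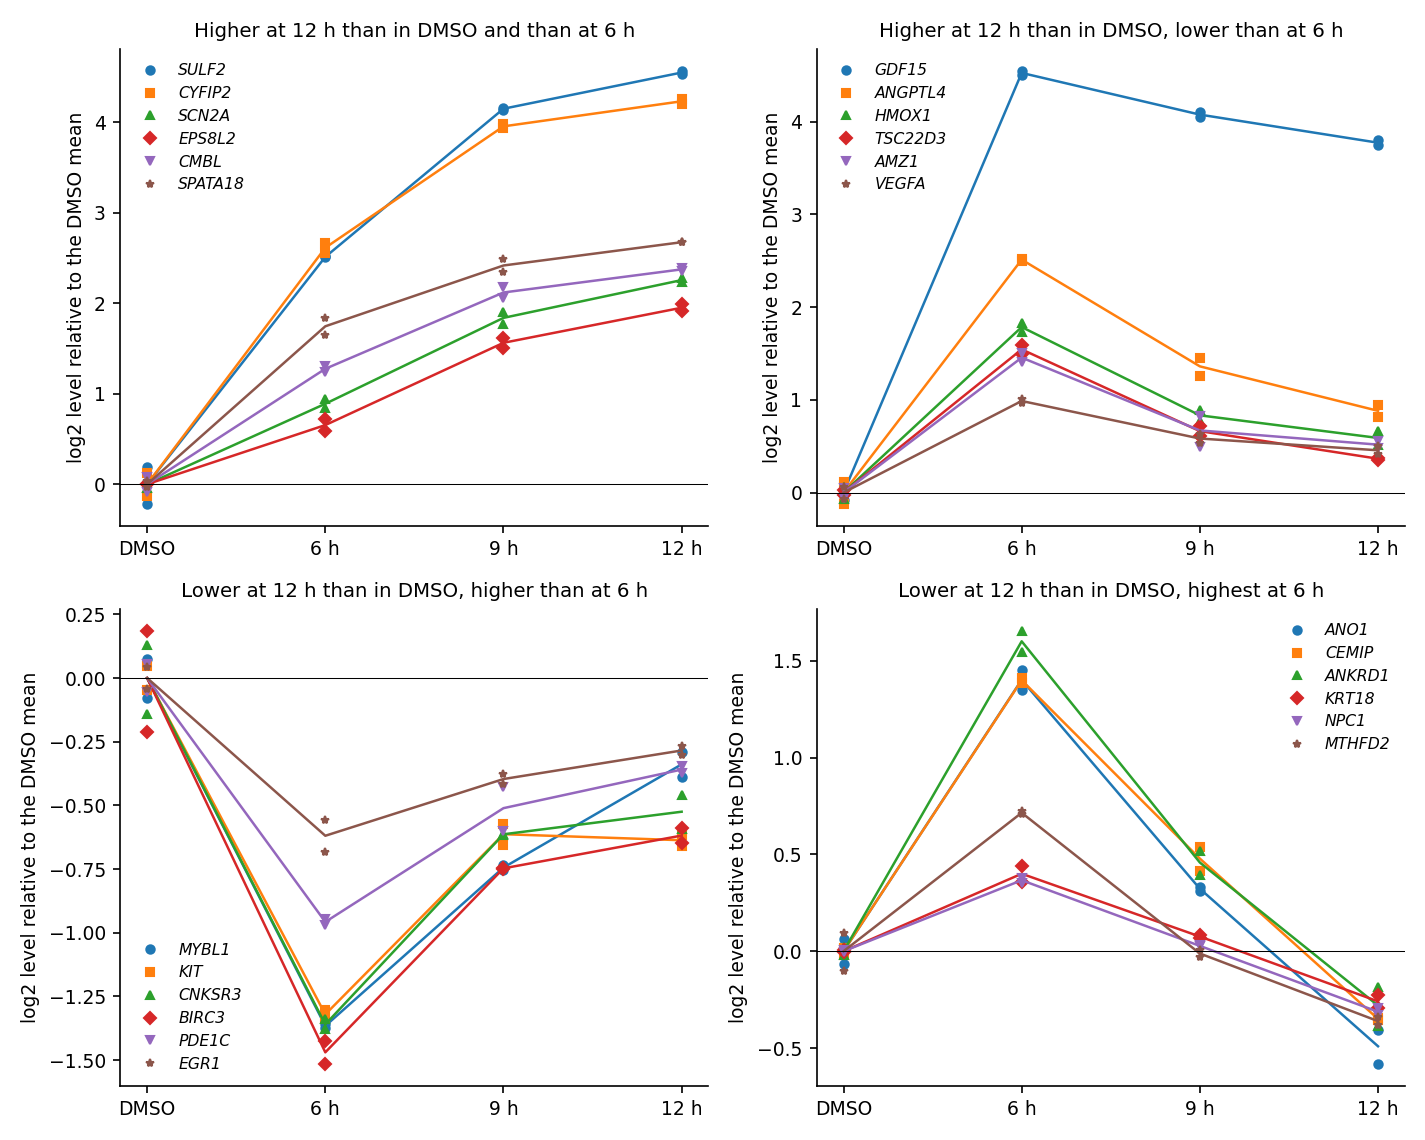
Log2 level relative to the DMSO mean for 24 genes in 4 patterns over DMSO, 6, 9 and 12 h; symbols are single libraries and lines join the means of 2. SULF2 and CYFIP2 keep climbing to 12 h, GDF15 and ANGPTL4 peak at 6 h, MYBL1 and KIT dip at 6 h, and ANO1 and CEMIP are above DMSO at 6 h but below it at 12 h.

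In the authors' deposited table of DESeq2 results for the same comparison, with the sign turned so that positive values are higher at 12 h, 1868 genes had risen and 2502 had fallen at an adjusted p under 0.05. Of these, 1867 and 2502 were also called in the same direction here, out of 2603 and 3007 calls, and 0 were called in opposite directions. The authors' deposited table gives CDKN1A a log2 change of 3.90 ± 0.05, and for MKI67 the authors' deposited table gives −2.52 ± 0.06. Both tables come from the same libraries.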

How the data were processed

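PolyA RNA of IMR90 cells was sequenced from directional libraries in 8 samples, 2 at each of 12 h, 9 h and 6 h of Nutlin-3a and 2 in DMSO, per the labels' protocols. The authors deposited normalized counts, used here as signal, and a table with log2 fold changes, their standard errors, a test score and p-values from DESeq2. The submitters' processing notes name STAR, DESeq2 and hg19, with no versions. Which counter, strand option and gene models were used is not given in the sources used here. Fold changes in the authors' deposited table are DMSO over 12 h, and their sign was turned here. Each library's deposited values were whole multiples of 1 step for 100% of values (tolerance 1e-06), so whole reads could be recovered. The 3 entries that name no gene, left out here, held 28.2 to 29.1% of reads.

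Genes that reached 10 in 2 or more libraries were tested on log2(normalized count + 1) with limma 3.58.1 in R 4.3.3 (mean-variance trend, all 8 libraries, Benjamini-Hochberg adjustment over 14074 genes, threshold 0.05, two-sided). Fold changes on this scale understate the change of genes with low values. Alternatives covered the pseudocount, the filter, scaling, the spread model, the replicate block, each replicate left out, edgeR 4.0.16 and DESeq2 1.42.0 on recovered reads, which called 3006 and 1925 increases. The fits were tested on simulated data. The comparisons and gene lists were chosen with earlier results of these data known. Genes named are the 16 largest changes each way with a mean of at least 50, 8 preset genes, up to 6 members of each list by p with up to 4 that went against its majority, lists of up to 12 in full, the 10 largest shifts in read share each way, the 10 or 8 largest differences between 12 h and 6 h each way, and up to 8 genes at the floor of 3 reads. Promoter letters were searched on both strands of RefSeq windows of GRCh38.p14, a build that differs from hg19, so the windows were matched by gene symbol only. Some genes that this rule takes are not reported here.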

Additional observations from a re-analysis of the deposited data

Results flagged for a closer look

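Many values differed between exposure times. The 12 h and 6 h libraries, each a pair, were compared directly in the limma fit, and 2031 genes were higher and 2400 lower at 12 h than at 6 h. Values below are log2 differences of 12 h minus 6 h, and each is listed because the gene's difference from DMSO was not the same at both times in that test.

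Genes that had risen against DMSO and were also higher at 12 h than at 6 h included NR4A2 (2.54), PDE7B (2.41), SULF2 (2.03), CYFIP2 (1.62), ANKEF1 (1.41), SSTR1 (1.37), BTBD11 (1.37), SCN2A (1.36), NR1D1 (1.31) and EPS8L2 (1.30). Of these, NR4A2, PDE7B, SSTR1, NR1D1, ANKEF1 and BTBD11 had lower means at 6 h than in DMSO.

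Genes that had fallen and were also lower at 12 h than at 6 h included ANO1 (−1.89), ANKRD1 (−1.88) and CEMIP (−1.75), along with the cell-division genes HJURP (−1.98), CENPA (−1.81), CDCA8 (−1.81), E2F8 (−1.80), SKA1 (−1.78), CDC25C (−1.74) and HMGB2 (−1.73). Of these, ANO1, ANKRD1 and CEMIP had higher means at 6 h than in DMSO.

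Genes that had risen but were lower at 12 h than at 6 h included ANGPTL4 (−1.63), HMOX1 (−1.20), TSC22D3 (−1.18), ADM2 (−1.14), PTGS2 (−1.02), IL6 (−0.97), AMZ1 (−0.94) and NUAK1 (−0.85). Genes that had fallen but were higher at 12 h than at 6 h included MYBL1 (1.03), SH3RF2 (0.91), BIRC3 (0.84), CNKSR3 (0.83), DENND5B (0.68), KIT (0.68), PDE1C (0.60) and POLR3G (0.58). The calls against DMSO of PTGS2, NUAK1, SH3RF2, DENND5B, POLR3G, ANKRD1, ADM2 and IL6 were each lost under 2 or more of the alternative settings.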

How the results depend on the processing

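No named gene that was called changed sign under the settings tried, but the balance did: increases outnumbered decreases with TMM scaling, quantile normalization and edgeR, and decreases outnumbered increases in the reported fit. Cholesterol and fatty acid synthesis genes had 7 increases and 5 decreases with quantile normalization, and the clock list had a median of 0.12 without DMSO replicate 1, against −0.03 with it. The numbers of higher and lower genes at 12 h were 2977 and 2778 with TMM scaling, 3369 and 2482 with quantile normalization, 3006 and 2817 with edgeR and 1925 and 2507 with DESeq2. Leaving out each replicate in turn gave 1697 to 2948 higher genes, 2339 to 3220 lower genes, 209 to 283 at least 2-fold higher and 498 to 515 at least 2-fold lower. The value of 1697 came without 12 h replicate 2, where the lone sample was assumed to vary like the other groups. Restricting the test to genes with a mean of at least 50 left 127 that were at least 2-fold higher, since fewer genes were tested. Against 6 h the higher genes ranged from 1248 to 2674 and the lower genes from 1682 to 3000; the count was 1274 without 12 h replicate 1 and 1248 without 12 h replicate 2. The cause of these shifts was not tested. With the replicate number as a block there were 2616 higher and 2993 lower genes. The 2 pairs share only a number, and deviations from group means correlated at 0.121 across 10612 genes between 12 h and DMSO and at −0.0199 between 12 h and 6 h. For single named genes 4603 settings left the call as it was, 199 lost it and 17 gained it. With 2 libraries a group, an exact permutation test of 1 value cannot go below 0.333, so p-values rest on the spread shared across genes. Genes near 3 reads have changes whose size cannot be read.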
